A study of Homo sapiens with 6 samples.

Results

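RNA made within 60 min of labelling was compared between HEK293 cells transfected with MOV10 siRNA and mock-transfected HEK293 cells. HEK293 is a human embryonic kidney cell line, and MOV10 is an RNA helicase that associates with UPF1, the central helicase of nonsense-mediated mRNA decay. Both conditions received 700 µM of the uridine analogue 4-thiouridine (4sU). The comparison takes the 4 labelled columns of the deposited table, 2 for mock and 2 for siRNA, out of 12 expression columns, and all 7682 genes of the table. The series lists 6 samples, 1 per fraction and condition, and the labelled fraction accounts for 2 of them. The other fractions are total RNA, taken before separation, and the unlabelled flow-through. It is not stated that replicates 1 and 2 came from different cultures, and the p-values below can reflect no more than the spread from column to column. The labels do not say whether mock cells received a control siRNA, nor how long after transfection the label was added.

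4sU enters cells and is built into transcripts in place of uridine, after which the labelled RNA can be biotinylated and captured on streptavidin. Labelled RNA therefore holds transcripts completed during the labelling that have not yet been degraded, while total RNA also holds older molecules. Labelled RNA of short-lived transcripts still depends on their decay during the labelling, and the poly(A)+ libraries used here record processed transcripts.

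The expression values are a signal normalised by the authors whose unit is not named. They are not counts, so depth is unknown and no counting interval is given. No value in the table is below 1.00, so a gene that fell below this in any column is not in the table. The median gene had a labelled value of 9.28 and 8.85 in the mock columns, and of 9.87 and 10.0 in the siRNA columns. In all 3 fractions, replicate columns correlated at 0.993 to 0.996 (Spearman, over genes). The labelled column of siRNA replicate 2 stood apart in histone genes, whose values with and without it are given beside them. Of 20 marker genes of other cell types only HBA1 was in the table. Of 8 genes fixed as HEK293 markers 4 were in the table, of which NEFL fell, by 0.51 on the log2 scale.

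Changes are given as differences of mean log2(value + 1), siRNA minus mock, with each column centred on its median gene, and folds of low genes are understated on this scale. A gene is said to have risen or fallen if its adjusted p in limma was below 0.05, with Benjamini-Hochberg adjustment over all genes. Labelled RNA rose for 752 genes (9.79%) and fell for 860 (11.2%), which is 21% of all genes in either direction. Most changes were small. Only 6 genes were higher and 20 lower by 1 log2 unit or more, which is 0.0781% and 0.26% of all genes. The SD of the change over genes was 0.24 and the median standard error 0.094. Before centring, the median gene was 0.13 higher in siRNA, and without centring 1866 genes rose and 415 fell. Rises were thus 46.7% of the calls with centring and 81.8% without it. All directions below are relative to the median gene.

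MOV10 itself had labelled values of 2.95 and 3.20 in mock and 2.55 and 2.63 in siRNA. The groups did not overlap, and the change was -0.30 ± 0.10 (SE, n = 2 columns per group; adjusted p = 0.0404 in limma). This call was lost in several alternative fits, among them those without pseudocount, without centring, with quantile normalisation, and without any of 3 columns in turn (mock replicate 2, siRNA replicate 1 or siRNA replicate 2). In total RNA, MOV10 was 13.1 and 14.6 in mock and 3.53 and 3.64 in siRNA, a change of -1.67. The change in labelled RNA was smaller than that in total RNA by 1.37 ± 0.12 log2 units (SE, n = 2 columns per group; adjusted p of the difference 0.000142 in limma). UPF1, at 25.2 and 24.2 in mock and 27.5 and 23.8 in siRNA, overlapped between groups.

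Immediate early genes and their growth factor response relatives mostly fell, and FOS, FOSB, JUND and IER2 were among the 15 largest decreases. These genes are transcribed within minutes of a growth factor or stress signal and make short-lived transcripts. Of 47 genes on the list 35 were in the table; 30 of them fell, none rose, and 5 did not pass the test. That is 85.7% lower against 11.2% of all genes. The median change of the list was -0.53, against 0.01 over all genes. The 5 that did not pass were CYR61, BTG1, ID2, SRF and ATF3, whose changes lay between -0.26 and 0.04. In every alternative fit no member rose; without centring 21 members fell and with 1 column left out 23 to 31 fell.

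The AP-1 subunits, which pair as FOS and JUN proteins to form a transcription factor, fell in all 6 cases measured. FOS was 42.8 and 45.7 in mock and 16.8 and 14.2 in siRNA. Both siRNA columns were thus well below both mock columns, 2.85-fold on the ratio of means (change -1.58 ± 0.10, SE, n = 2 columns per group; adjusted p = 9.24e-08 in limma). FOSB was 9.64 and 9.50 in mock and 3.18 and 3.07 in siRNA. JUND was 112 and 116 in mock and 55.8 and 46.3 in siRNA. The columns of each gene were closer to each other than to the other condition. JUNB (66.0 and 70.6 in mock, 36.4 and 36.7 in siRNA) and FOSL1 (17.2 and 16.6, then 9.32 and 9.20) were likewise separated. JUN fell least among the subunits, by 0.53 on the log2 scale.

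Genes that restrain growth factor signalling fell as well. The feedback inhibitors of MAP kinase signalling, which are the dual-specificity phosphatases DUSP1, DUSP4 and DUSP6 and the SPRY and SPRED proteins, fell in 7 of 7 cases, by 0.28 to 1.00 on the log2 scale. DUSP6 was 27.0 and 28.9 in mock and 15.6 and 13.9 in siRNA, and SPRY4 was 10.9 and 12.3 in mock and 5.88 and 5.997 in siRNA. ZFP36, ZFP36L1 and ZFP36L2, which bind AU-rich elements and promote mRNA decay, all fell; ZFP36 was 28.1 and 28.3 in mock and 16.6 and 14.995 in siRNA. The immediate early response genes IER2, IER3 and IER5 fell in 3 of 3 cases. IER2 was 193 and 203 in mock and 106 and 89.4 in siRNA, a separation wider than the spread within either group. Of the ID proteins, which block DNA binding by helix-loop-helix factors, ID1 (53.9 and 59.3 in mock, 33.6 and 26.0 in siRNA) and ID3 fell, and ID2 (258 and 315 in mock, 323 and 279 in siRNA) overlapped between groups. These role groups were drawn up after the values were seen.

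**Figure D1:**
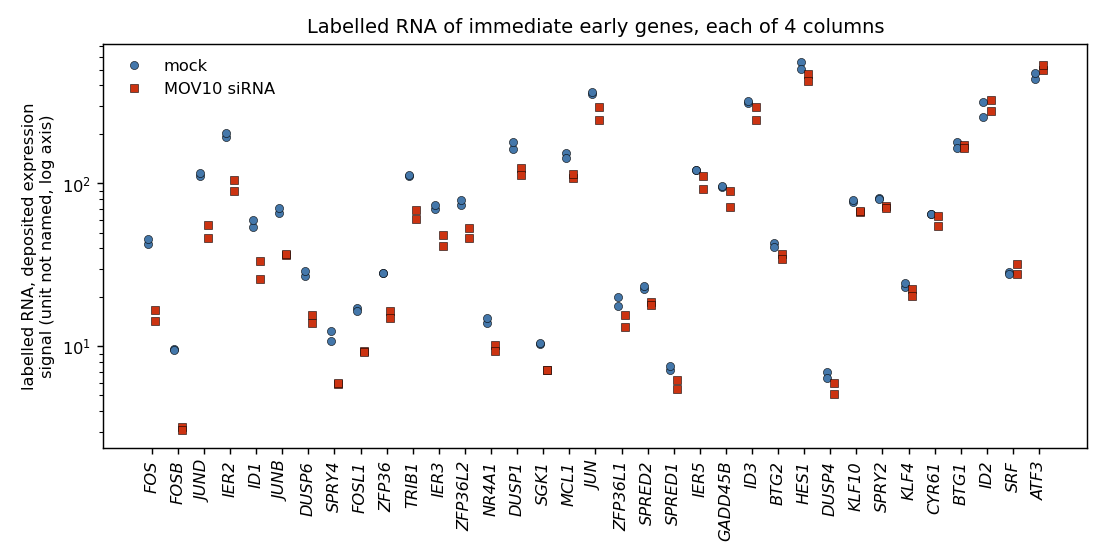
Labelled RNA of the 35 measured immediate early and growth factor response genes, ordered by change; each point is 1 column on a log axis, circles for mock and squares for MOV10 siRNA. AP-1 genes such as FOS, FOSB and JUND show siRNA squares far below the mock circles, and the groups meet or cross only at the right, as in ID2 and BTG1.

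Total RNA of these genes was also lower. Over all genes, 891 (11.6%) were higher and 1023 (13.3%) lower in total RNA, 24.9% in either direction. The median change of the list in total RNA was -0.35, with 21 members lower, 1 higher, and 20 members lower in both fractions. In the flow-through, 23 members were lower and 2 higher, with a median of -0.61; over all genes 25.2% were lower and 29.7% higher there, 54.9% in either direction. For 14 members the fall in labelled RNA exceeded that in total RNA by the test of the difference, and for 1, ATF3, the labelled change was higher. Over all genes the labelled change was below the total change for 6.87% and above it for 7.35%. JUND fell by 1.27 in labelled RNA and by 0.35 in total RNA, a difference of -0.92 log2 units (adjusted p = 0.00229 in limma). In flow-through RNA JUND fell by 1.54, from 61.1 and 52.6 to 18.0 and 18.8. MCL1, an anti-apoptotic BCL2 relative, fell in labelled RNA (-0.54) and did not pass the test in total RNA (0.14), and the difference was -0.67 (adjusted p = 0.00159 in limma). Members had a median deposited half-life of 76.2 min, a median of 3 exons and a median gene span of 5.19 kb, against 729 min, 9 exons and 32.4 kb over all genes. The half-lives were computed by the authors from the same labelled values, so they are not an independent measurement.

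Core promoter sequences of these genes are shown because the members moved together. RefSeq promoters (GRCh38.p14, 250 bases before to 50 after the annotated start) were matched for 6320 genes, 82.3% of the table, and for 27 members of the list. The motif TATAAA, searched on both strands, was in 9 of these 27 promoters (33.3%). It was in 5.32% of the promoters of all genes in the table, in 7.43% of those of genes that fell, in 6.42% of those that rose, and in 11.5% of all promoters in the RefSeq table. The cyclic AMP response element TGACGTCA, also searched on both strands, was in 2 of the 27 and in 3.81% of all genes in the table. Other motifs were searched too. The CArG box (CC, 6 bases of A or T, GG) was in 1 of the 27, and in 1.06% of all genes. GGGCGG was in 66.7% against 72.7%, CCAAT in 51.9% against 38.2%, CACGTG in 11.1% against 11.2%, and TGATGCAA in 0% against 0.538%. Windows were drawn only for members that fell with a match on the strand of the gene, and 1 chromosome was left out. In the following 30-base windows, written on the strand of the gene, capitals mark the TATAAA or TGACGTCA match.
FOS (chr14:75278783-75278812, GRCh38.p14, + strand): taaaacgcttgtTATAAAagcagtggctgc
FOSB (chr19:45467954-45467983, + strand): gggtcccgggcaTATAAAtacaggctggcg
JUNB (chr19:12791443-12791472, + strand): tgactagcgcggTATAAAggcgtgtggctc
ID1 (chr20:31605246-31605275, + strand): ccgtggcgtgttTATAAAagacaagctgtg
GADD45B (chr19:2476084-2476113, + strand): aatgttcaagtcTATAAAagtcggtgccgg
DUSP1 (chr5:172771208-172771237, - strand): ccagaggccgcaTATAAAcgcgctccccgg
JUND (chr19:18281804-18281833, - strand): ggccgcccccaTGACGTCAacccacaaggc
The TATAAA matches printed here began 30 to 33 bases upstream of the annotated start, and JUND's TGACGTCA began 200 bases upstream. DUSP1 also held a TGACGTCA, 125 bases upstream, whose window is not printed. The range does not cover TATAAA promoters of the list without a printed window. A match is a description of letters in a window and was not tested as a binding site.

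Among the other large decreases were genes outside the list. ZCCHC12, a zinc finger protein of the nervous system, was 32.9 and 32.2 in mock and 11.3 and 9.62 in siRNA. It had the lowest change of any gene in labelled RNA (-1.68 ± 0.09, SE, n = 2 columns per group; adjusted p = 3.47e-08 in limma) and fell further in total RNA, from 45.5 and 50.6 to 8.05 and 8.34. INSM1, a zinc finger factor of neuroendocrine cells with a single exon, was 32.1 and 31.5 in mock and 13.7 and 12.3 in siRNA. ARC, a gene induced by neuronal activity, was 23.9 and 29.1 in mock and 13.6 and 9.79 in siRNA. Neither INSM1 nor ARC overlapped between groups, and INSM1 did not pass the test in total RNA (-0.32) but fell in flow-through RNA (-1.49). PHLDA2, PRR7, OLIG2, FAM117B, TNFRSF12A, GPR27 and GJD3 fell by 1.07 to 1.20. TRDMT1, a tRNA methyltransferase, was 13.2 and 3.63 in mock and 2.44 and 1.83 in siRNA. Its mock columns disagreed, and its change was -0.72 without mock replicate 1 and -2.28 without mock replicate 2.

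JPH3 had the largest rise. JPH3 codes for a junctophilin that ties the plasma membrane to the endoplasmic reticulum in excitable cells. It was 3.90 and 3.98 in mock and 21.9 and 22.8 in siRNA, 5.67-fold on the ratio of means (change 2.12 ± 0.09, SE, n = 2 columns per group; adjusted p = 9.71e-10 in limma). The columns within each condition agreed closely. In total RNA the same gene moved the other way, from 35.3 and 29.8 in mock to 2.83 and 3.43 in siRNA. Its flow-through values in mock, 70.0 and 5.02, disagreed with each other. CHGB, a granin of secretory granules, was 3.03 and 2.39 in mock and 7.59 and 7.57 in siRNA. Its total RNA rose too (0.58). The remaining genes among the 15 largest rises, apart from histones, were CFDP1, FOXP2, FAM133B, TMED8, GMPPA and DHRS2, which rose by 0.78 to 0.88. FOXP2, a forkhead factor, was 4.88 and 9.08 in mock and 13.4 and 14.9 in siRNA, and its change was 0.43 without mock replicate 1. Its call was lost when all 12 columns shared 1 variance estimate.

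Histone genes filled 7 of the 15 largest rises, and these rested on 1 column. Most histone genes are transcribed mainly in S phase and their transcripts end in a stem-loop in place of a poly(A) tail. The libraries used here were poly(A)+. HIST1H4J was 3.09 and 2.97 in mock and 4.34 and 18.2 in siRNA. HIST1H3D was 11.8 and 13.3 in mock and 16.9 and 58.8 in siRNA. In both genes siRNA replicate 2 was several times higher than siRNA replicate 1, which lay just above the mock columns. Of 31 measured histone genes, 11 rose (35.5%, against 9.79% of all genes) and 2 fell (6.45%, against 11.2%), with a median change of 0.19. Without siRNA replicate 2 only 3 rose, and with quantile normalisation 3 rose as well. The 7 histone genes among the 15 largest rises had changes of 0.09 to 0.30 without that column, and none passed the test. In total RNA 3 histone genes were higher and 4 lower.

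**Figure D2:**
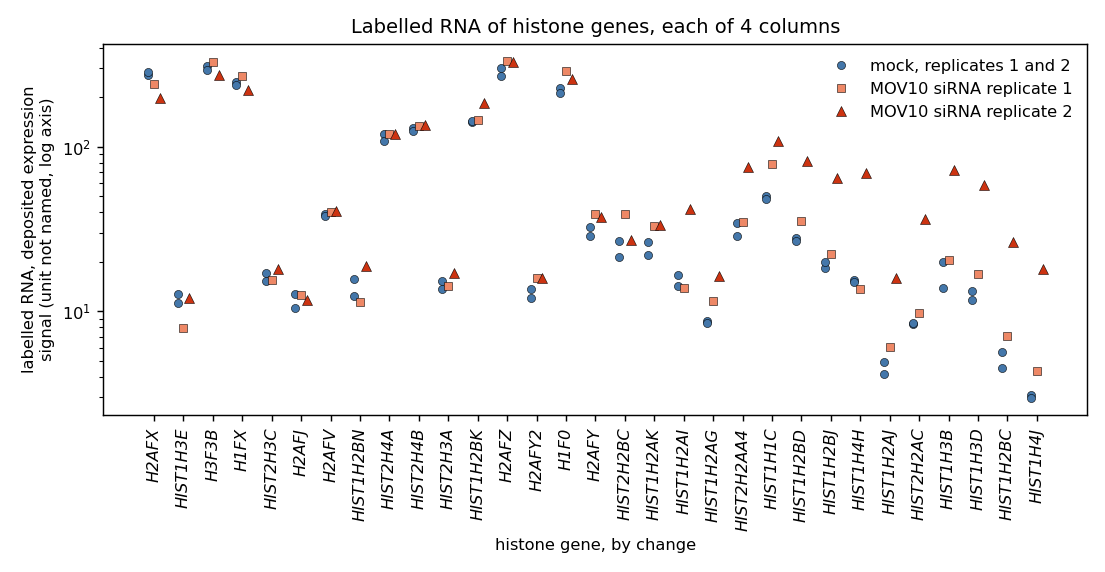
Labelled RNA of 31 histone genes, ordered by change; each point is 1 column on a log axis, circles for mock, squares for MOV10 siRNA replicate 1 and triangles for replicate 2. At the right, the triangles lie far above the other 3 columns, as in HIST1H4J (18.2 against 2.97 to 4.34), and the squares lie near the circles.

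Among regulators of development, falls outnumbered rises. Of 68 homeobox, forkhead, SOX and KLF factors in the table, which are DNA-binding proteins of cell identity, 24 fell (35.3%, against 11.2% of all genes) and 2 rose, with a median change of -0.15. Of the 68 genes 38 have 1 or 2 exons, and these hold 16 of the 24 falls; among all genes with 1 or 2 exons 35.1% fell. IRX3 was 25.4 and 22.5 in mock and 15.2 and 13.4 in siRNA, and SOX4 was 110 and 118 in mock and 79.5 and 69.2 in siRNA. IRX5, FOXC1, FOXB1 and SOX21 fell by 0.56 to 0.72. The median stayed below 0 without centring (-0.03), where 16 fell and 7 rose, and 15 fell without mock replicate 2. In total RNA, 16 members of the list were higher and 2 lower, and in flow-through RNA 11 were higher and 29 lower. The labelled change was below the total change for 20 members and above it for 1. Over all genes it was below for 6.87% and above for 7.35%. HOXA3, a homeobox gene, was 38.7 and 41.0 in mock and 37.1 and 32.2 in siRNA in labelled RNA. In total RNA it rose, from 7.98 and 8.57 to 14.5 and 12.1, and the difference between fractions was -0.96 (adjusted p = 0.00145 in limma). HOXA3 was chosen after its values were seen.

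Among signalling, solute carrier and lipid synthesis genes, falls outnumbered rises. Of 19 Wnt and Notch genes 9 fell (47.4%, against 11.2% of all genes) and none rose, with a median of -0.26. HES4, a Notch-responsive repressor, was 36.6 and 44.6 in mock and 32.2 and 26.3 in siRNA. Without mock replicate 2, 5 of the 19 fell, and without centring also 5. Of 124 solute carriers 17 fell, a share (13.7%) near the 11.2% of all genes, and 1 rose (0.806%, against 9.79%), with a median change of -0.11, and the median was 0.01 without centring, where 9 fell. SLC30A1, a zinc exporter, fell by 0.67 in labelled and by 0.77 in total RNA. Of 9 YAP and TGF-beta targets 3 fell (33.3%) and 1 rose (11.1%), with TGFB1 falling from 3.27 and 3.44 to 1.63 and 1.76. Of 24 cholesterol and fatty acid synthesis genes 4 fell (16.7%, against 11.2% of all genes) and none rose, with a median of -0.11. Without centring 3 fell and 2 rose, with a median of 0.01. INSIG1, which retains the sterol sensor SCAP in the endoplasmic reticulum, was 27.4 and 25.04 in mock and 12.9 and 14.2 in siRNA. Its total RNA change did not pass the test (-0.19), and its flow-through RNA fell (-0.52).

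Genes of cell division and of the transcription and RNA machinery gave more rises than falls. Of 29 mitosis genes 10 rose (34.5%, against 9.79% of all genes) and none fell, with a median of 0.20. TOP2A, the topoisomerase that separates replicated chromosomes, was 35.6 and 34.1 in mock and 53.3 and 56.7 in siRNA. BUB1B, a spindle checkpoint kinase, was 8.60 and 7.18 in mock and 12.2 and 13.8 in siRNA. Both were separated between conditions. Without mock replicate 2 the count of mitosis genes that rose was 4, and without siRNA replicate 2 it was 5. Of 37 S phase and replication genes 4 rose and 1 fell, a share of rises (10.8%) close to that of all genes, and without mock replicate 2 none of them rose in limma.

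Of 38 genes of RNA polymerase II and elongation 10 rose (26.3%, against 9.79% of all genes) and 1 fell, with a median of 0.14. LEO1, a subunit of the PAF1 complex, was 6.62 and 5.18 in mock and 10.8 and 13.0 in siRNA. Other rises in the list were MNAT1, a subunit of the CDK-activating kinase, PAF1 and CTR9 of the same complex as LEO1, and the elongation factors SUPT5H and SUPT6H. HEXIM1, an inhibitor of P-TEFb with a single exon, was 18.6 and 17.4 in mock and 15.005 and 14.5 in siRNA, and fell. The labelled change exceeded the total change for 10 of the 38, and for 7.35% of all genes. Without mock replicate 2, 6 of the 38 rose. Of 19 cleavage and polyadenylation factors 5 rose (26.3%) and none fell, with PCF11 highest at 0.44. Of 53 cytosolic ribosomal protein genes 10 rose (18.9%, against 9.79% of all genes) and none fell, and 43 lay above the median gene. Their calls depended on mock replicate 2: without it none of the 53 passed, and without siRNA replicate 2, 15 did. Without mock replicate 1 or without siRNA replicate 1, 5 did. Ribosomal protein genes have many processed copies, and how shared reads were assigned is not stated, so these values are uncertain.

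Protein folding and stress genes gave mixed results. Over all genes 9.79% rose and 11.2% fell. Rises were 27.3% of heat shock, 22.2% of proteasome, 16.7% of ATF4, 14.8% of unfolded protein response, 13.0% of p53 and 14.3% of interferon genes. Falls were 4.55%, 3.70%, 3.33%, 14.8%, 17.4% and 0%, in that order. Of 22 heat shock chaperones 6 rose and 1 fell; HSPA8, the constitutive HSP70, was 298 and 254 in mock and 428 and 418 in siRNA. Without mock replicate 2 only 1 rose. Of 27 proteasome subunits 6 rose and 1 fell, and without mock replicate 2 only 1 rose. Of 30 ATF4 targets 5 rose and 1 fell. DDIT3, the stress factor CHOP, was 166 and 146 in mock and 297 and 284 in siRNA, while its total RNA did not pass the test (0.13) and its flow-through RNA rose (0.76). CEBPB, a leucine zipper factor with a single exon, was 109 and 110 in mock and 70.8 and 59.3 in siRNA. Of 27 genes of the unfolded protein response 4 rose and 4 fell, and of 23 p53 targets 3 rose and 4 fell. Of 14 interferon-stimulated genes 2 rose, PSME2 and PSME1, which activate the proteasome, and none fell. None of 9 NF-kB targets passed the test in limma, and 0 had an unadjusted p below 0.05.

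For lists with a count of 0 in 1 direction, the same fit in limma was also read at an unadjusted p below 0.05. The immediate early, Wnt and Notch and NF-kB lists then still had 0 members higher, and the cholesterol list had 2. The mitosis and cleavage and polyadenylation lists then had 0 members lower, and the cytosolic ribosomal protein and interferon lists had 1 each.

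**Figure D3:**
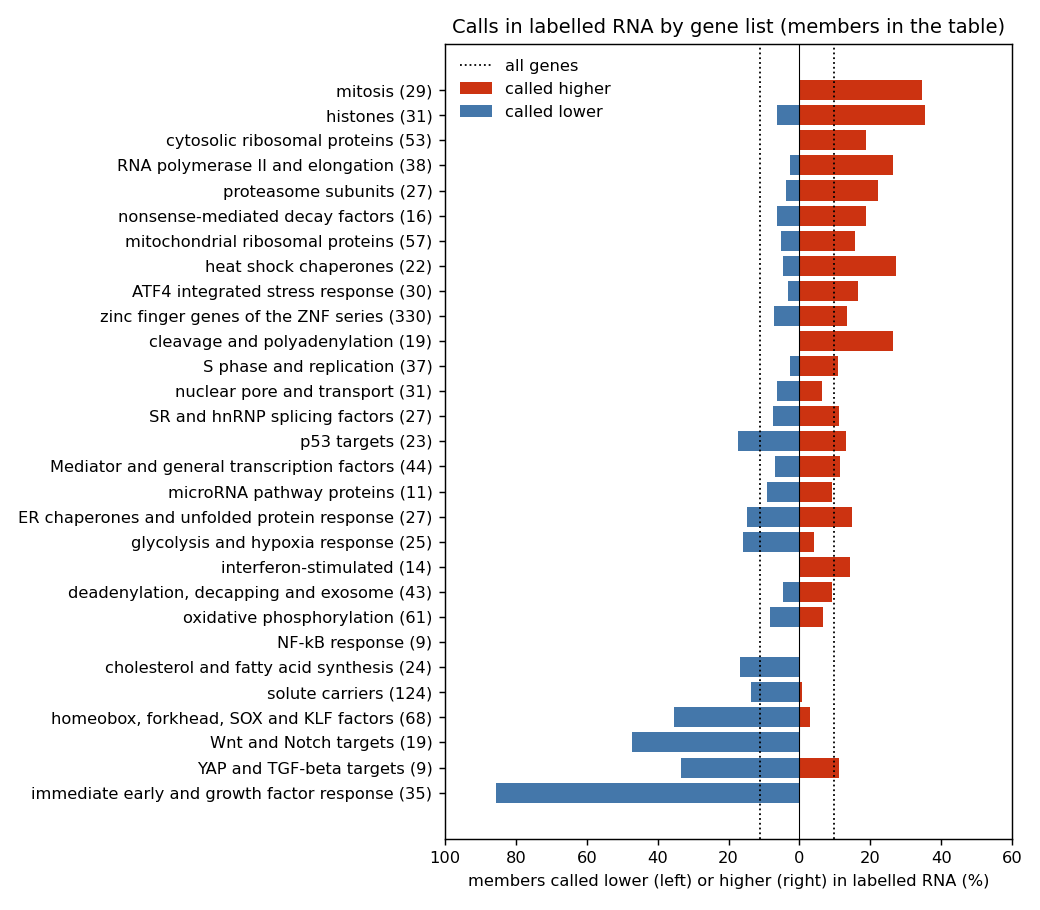
Share of each list's members in the table that were called higher (right of 0) or lower (left) in labelled RNA, with the number of members in brackets, ordered by median change; dotted lines give the share of all genes, 9.79% higher and 11.2% lower. The immediate early list reaches 85.7% on the lower side, and mitosis and histones lead on the higher side.

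MOV10 is known to work with RNA decay and microRNA proteins. Of genes on the nonsense-mediated decay list 25% passed the test in either direction, against 21% of all genes. The shares were 13.95% of deadenylation, decapping and exosome genes and 18.2% of microRNA pathway proteins. Of 16 genes on the nonsense-mediated decay list 3 rose and 1 fell. EIF4A3, a core protein of the exon junction complex, was 67.5 and 62.5 in mock and 95.0 and 94.6 in siRNA, and UPF3B, which links that complex to UPF2, rose by 0.53. The fall was that of PNRC1, by 0.66, which is on the list but is not an established nonsense-mediated decay factor. Of 43 deadenylation, decapping and exosome genes 4 rose (9.30%) and 2 fell (4.65%). Of 11 microRNA pathway proteins 1 rose and 1 fell. The first was TNRC6A, an Argonaute partner also known as GW182, at 10.6 and 10.6 in mock and 15.04 and 16.1 in siRNA. The second was MOV10. Over all genes 9.79% rose and 11.2% fell. Of 330 zinc finger genes of the ZNF series 44 rose (13.3%) and 24 fell (7.27%). Of 57 mitochondrial ribosomal proteins 9 rose (15.8%) and 3 fell (5.26%), and of 61 oxidative phosphorylation genes 4 rose (6.56%) and 5 fell (8.20%). The rises in the ZNF series numbered 21 without mock replicate 2 and 26 without siRNA replicate 2. Those of the mitochondrial ribosomal proteins numbered 15 without mock replicate 1 and 4 without mock replicate 2, and their falls 1 without mock replicate 1 and 7 without siRNA replicate 1. Of 27 SR and hnRNP splicing factors 3 rose (11.1%) and 2 fell (7.41%). Among 44 Mediator and general transcription factors 5 rose (11.4%) and 3 fell (6.82%). Nuclear pore and transport genes, 31 in number, gave 2 rises and 2 falls (6.45% each). The 25 glycolysis and hypoxia genes gave 1 rise (4%) and 4 falls (16%). SNHG11 and TUG1, the only snoRNA host and long noncoding RNA of their lists in the table, did not pass the test. The counts of 3 to 5 given for the ATF4, unfolded protein response, p53, glycolysis, decay, nonsense-mediated decay, Mediator, splicing and oxidative phosphorylation lists moved by over 1.5 times, in at least 1 direction, when 1 column was left out: mock replicate 2 did so for all of these but the glycolysis list, which moved without mock replicate 1, from 4 falls to 2.

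The share of genes that fell varied with the number of exons. Exons were counted in the longest annotated protein-coding transcript (GENCODE v29), which was found for 99.4% of genes. Among 519 genes with 1 or 2 exons 35.1% fell and 5.78% rose. Among 1637 genes with 3 to 5 exons 19.2% fell, among 2314 with 6 to 10 exons 9.85% fell, and among 3169 with over 10 exons 4.13% fell and 11.9% rose. The median change went from -0.13 in the first class to 0.06 in the last. In total RNA 16.2% were lower in the first class and 12.2% in the last, and in flow-through RNA 44.5% and 18.6%. Genes that fell had a median of 5 exons and a span of 16.6 kb, and genes that rose 11 exons and 36.3 kb. No test was made of these shares, since genes are not independent replicates.

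**Figure D4:**
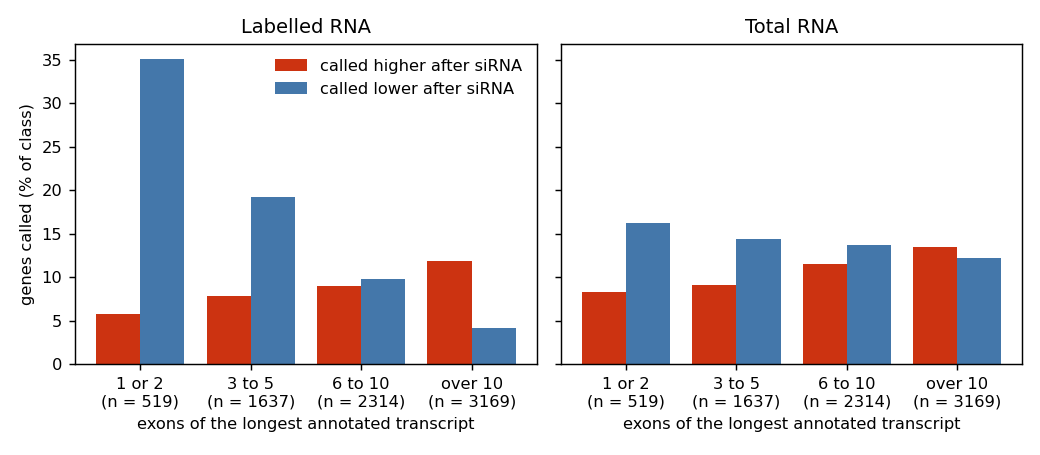
Percent of genes called higher or lower after MOV10 siRNA by exon count, in labelled RNA (left) and total RNA (right), with the number of genes in each class under the bars. In labelled RNA the share called lower drops from 35.1% to 4.13% across the classes, and in total RNA from 16.2% to 12.2%; flow-through RNA, not drawn, goes from 44.5% to 18.6%.

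The exon pattern was measured within other features that move with it. Without the immediate early list 33.6% of the genes with 1 or 2 exons fell. Within 4 equal classes of half-life, shortest first, 35.6%, 37.8%, 26.1% and 11.1% of genes with 1 or 2 exons fell. The last share came from 9 genes only. Of genes with over 10 exons 2.96% to 4.89% fell in these classes. The classes rest on all 4 half-life columns, siRNA included, which were computed from the same labelled values. They are thus not independent of the falls counted in them. Within 4 equal classes of GC content of the transcript, between 24.5% and 45.7% of genes with 1 or 2 exons fell, against 2% to 8.52% of those with over 10. GC content moved with the calls as well: in the richest class 17.7% fell and 4.398% rose, while in the next class 7.33% fell and 12.9% rose. Without centring, 23.3% of genes with 1 or 2 exons fell against 1.17% of those with over 10. With 1 column left out in turn, the first class gave 27.6% to 36.8% and the last 1.86% to 4.32%. The lowest value of the first class came without mock replicate 2 and without siRNA replicate 2, and that of the last class without mock replicate 2.

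The change in labelled RNA and the change in total RNA differed for many genes. Of all genes, 565 (7.35%) had a labelled change above the total change and 528 (6.87%) one below it, 14.2% in either direction, by the limma test of the difference. Without mock replicate 2 these counts were 237 and 183. Genes called lower in both fractions numbered 268 and higher in both 136. In opposite directions, 62 were lower in labelled and higher in total RNA and 37 were higher in labelled and lower in total RNA. A further 530 were called lower in labelled RNA and not called in total RNA, of which 192 passed the test of the difference. Flow-through calls did not enter these counts. Pearson's correlation between both changes was 0.29 over 7682 genes, which share the same cultures and are not independent replicates. Fractions were normalised by the authors in separate columns, and a difference between fractions rests on each being centred. In some genes the total change lay above both the labelled and the flow-through change. JUND changed by -1.27 and -1.54 there, against -0.35 in total RNA, and CEBPB by -0.86 and -1.04, against -0.005. In others the flow-through change was near the total change, as in SLC2A3 (0.74 and 0.77) and WBP11 (-1.54 and -1.53). The part of the total columns or their scaling was not tested.

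EIF6, a factor that keeps ribosomal subunits apart, was 90.6 and 86.2 in mock and 118 and 110 in siRNA in labelled RNA, a change of 0.24 that did not pass the test. In total RNA it fell from 179 and 204 to 73.9 and 70.4. WBP11, a splicing factor, was 48.8 and 41.5 in mock and 46.2 and 43.2 in siRNA in labelled RNA, where the groups overlapped, and fell from 46.9 and 52.0 to 16.0 and 16.3 in total RNA. CDC42EP1, an effector of CDC42, and UBE2MP1, a pseudogene whose reads may be shared with its parent gene, had total RNA changes of -1.75 and -1.94 and labelled changes of -0.30 and -0.47. In the other direction, SLC2A3, the glucose transporter GLUT3, was 9.41 and 8.30 in mock and 6.97 and 6.92 in siRNA in labelled RNA. Its total RNA rose from 4.02 and 4.01 to 7.80 and 7.06. LYRM5 and MEX3D likewise fell in labelled RNA (-0.61 and -0.81) and rose in total RNA (0.50 and 0.30); in flow-through RNA MEX3D fell (-0.97) and LYRM5 did not pass the test (0.13). FJX1 and INSM1, both with a single exon, fell in labelled RNA and did not pass the test in total RNA. Both fell in flow-through RNA, FJX1 by 0.87 and INSM1 by 1.49.

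**Figure D5:**
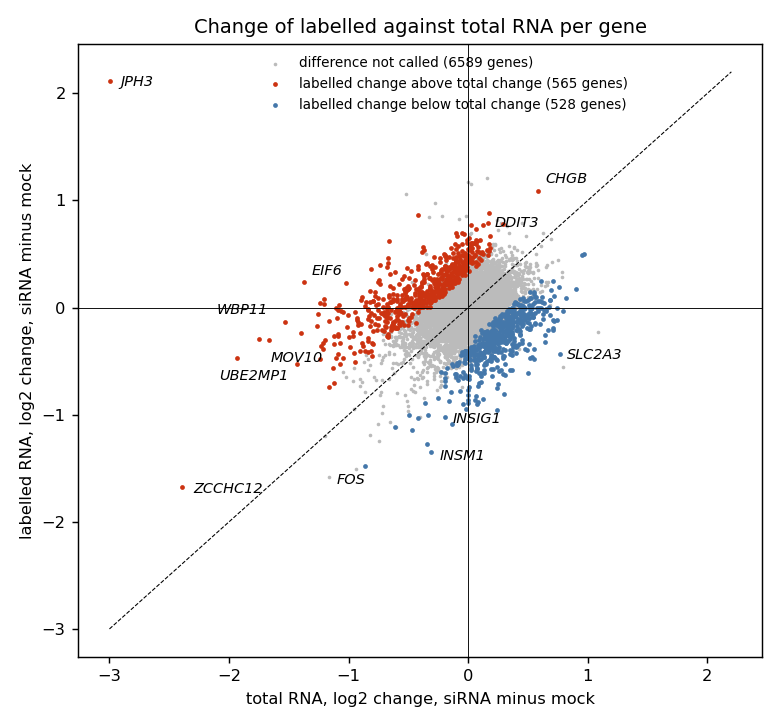
Change of labelled RNA (vertical) against change of total RNA (horizontal) for 7682 genes, siRNA minus mock on the log2 scale; red and blue points passed the test of the difference, and the dashed line marks equal change. JPH3 lies alone at the upper left, MOV10, EIF6 and WBP11 lie far left near 0 on the vertical axis, and FOS and ZCCHC12 lie at the bottom.

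A short 3' UTR sequence, TACTGCA, was examined because an earlier search of these data had found it among genes with shortened half-lives, so its result on the difference is no independent evidence. It occurred on the sense strand in the 3' UTR of 938 of 7568 genes. In labelled RNA 5.65% of carriers rose and 13.6% fell, against 10.2% and 10.8% of other genes, with median changes of -0.03 and 0.01. For the difference between fractions, 13.9% of carriers had a labelled change above the total change, against 6.37% of genes without the site. Carriers were 23.6% of the genes with a labelled change above the total change, 10.5% of those with one below, and 11.6% of those not called. A labelled change below the total change was found in 5.86% of carriers and 7.04% of genes without the site. Carriers also had longer 3' UTRs, with a median of 3.29 kb against 1.25 kb, and the part of length in this was not tested. The carriers DNAJB9 and EXOSC6 had a labelled change below the total change (-0.49 and -0.44, adjusted p = 0.0326 and 0.0137 in limma). All genes printed below had one above it. The sites of EIF6 and WBP11, 2 of the 5 genes with the largest such difference, and of MBNL1, a splicing regulator with 3 sites, are printed below as DNA with the site in capitals (annotated transcripts, GENCODE v29).
EIF6: ggatctatcatTACTGCAaaaacctgctct
WBP11: tgttcagaattTACTGCAcataaaaaaggg
MBNL1: acttccaagttTACTGCAagtttttatgct
MBNL1 was 9.58 and 10.3 in mock and 6.89 and 7.69 in siRNA in labelled RNA, and 20.9 and 20.9 against 6.95 and 7.02 in total RNA. Its labelled fall of 0.53 was smaller than its total fall of 1.43 by 0.91 log2 units (adjusted p = 0.000953 in limma).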

How the data were processed

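Per the labels' protocols, 4sU was biotinylated, labelled RNA was captured on streptavidin beads, and poly(A)+ libraries (TruSeq) were made from input, unbound and eluted RNA and read for 100 cycles. The submitters' processing notes name TopHat2 2.06 and hg18; what computed expression from the alignments is not stated. The authors deposited a normalised signal for each gene and column, with no unit in the header, and their own half-lives. The unit of the half-lives is not named either, and they were read as minutes. Half-lives recomputed in minutes from the 3 fractions, for 60 min of labelling, had column medians of 462 to 562. The deposited medians were higher, 657 to 900. Recomputed and deposited values correlated at 0.968 to 0.982 (Pearson, log2, over genes), which cannot show the unit.

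Values were taken as log2(value + 1), centred on the median gene per column and fitted with limma 3.58.1 (R 4.3.3, mean-variance trend), with Benjamini-Hochberg adjustment over 7682 genes at 0.05. The labelled test used 4 columns, and the test of labelled against total change used 8. By the labels both fractions come from the same transfections, but the test took all 8 columns as independent. Replicate deviations of labelled and total columns correlated at 0.09 in mock and 0.04 in siRNA. GEO's 1 sample per group is split into replicates 1 and 2 only by the table's header. On data simulated for the labelled comparison over 7682 genes, the fit recovered 20% of changes of 0.25, 86% of 0.5 and 100% of 1, with 1.29% of calls false. For the difference it recovered 0%, 68% and 100%, with 2.90% false. The simulation changed 50 genes at each size, far fewer than were called in the data. Its columns were drawn independently from a normal distribution with a smoothed spread, and none was outlying. These rates therefore need not hold for the real calls.

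The comparison and the 33 gene lists were chosen with earlier results of these data known. The proteasome, oxidative phosphorylation and solute carrier patterns were narrowed after values were seen, to remove genes that are not members. Named genes were MOV10, UPF1, the 15 largest rises and 15 largest falls with separated columns, per list the 2 largest rises and 2 largest falls (or the largest change where none passed), and the 5 largest differences from total RNA each way; other names were chosen after their values were seen. Gene features came from GENCODE v29 and promoters from RefSeq GRCh38.p14, matched by symbol; no coordinate of the hg18 alignment was used. Dates stood in place of 10 gene symbols, and these genes were not named. The 13 alternatives changed the pseudocount, floor, scaling, variance model, columns fitted, replicate block or left-out column. With 1 column left in a condition, it is assumed to vary like the other condition. Depth is unknown.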

Additional observations from a re-analysis of the deposited data

Results flagged for a closer look

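The change after MOV10 siRNA differed between labelled and total RNA for 565 genes with a labelled change above the total change and 528 with one below, by limma's test of the difference over all genes with Benjamini-Hochberg adjustment. Of the 5 largest differences upward, JPH3 differed by 5.12 log2 units, EIF6 by 1.61, UBE2MP1 by 1.46, CDC42EP1 by 1.46 and WBP11 by 1.40. In the other direction SLC2A3 differed by -1.20, FJX1 by -1.20, LYRM5 by -1.11, MEX3D by -1.10 and INSM1 by -1.04. The mock flow-through values of JPH3 (70.0 and 5.02) disagree, while its labelled and total columns agree within each condition. The groups were too small to look for outlying columns gene by gene.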

How the results depend on the processing

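Labelled RNA gave 752 rises and 860 falls. Without centring these were 1866 and 415, and with the replicate block 275 and 364. With 1 column left out they ranged from 427 to 662 rises and from 565 to 882 falls, the lowest without mock replicate 2. The difference from total RNA gave 565 above and 528 below; without centring these were 1239 and 242, and with 1 column left out 237 to 447 and 183 to 410, the lowest again without mock replicate 2. Below 1.5 times the main counts stayed the fits with pseudocount 0 or 5, with a floor of 5, with quantile normalisation, without a trend and with all 12 columns. The changes of UPF1 and HBA1, which passed no test, reversed: without centring they were 0.050 and 0.036, and with 1 column left out they ranged from -0.18 to 0.041 and from -0.23 to 0.062, highest without siRNA replicate 2. Of the named genes called, 39 lost the call with the replicate block, 26 without mock replicate 2, 22 without siRNA replicate 2, 15 with quantile normalisation and 13 without centring; the cause was not tested. MOV10's adjusted p in limma was 0.054 without pseudocount, 0.16 without centring, 0.066 with quantile normalisation, 0.092 with the replicate block, and 0.076 to 0.30 without mock replicate 2, siRNA replicate 1 or siRNA replicate 2. With the replicate block 20.6% of genes with 1 or 2 exons and 1.04% of those with over 10 fell. Same-numbered mock and siRNA columns of labelled RNA deviated with a correlation of -0.03 over 7682 genes, and nothing in the labels pairs them, so the block shares only a number. Depth is unknown, so its part in the precision could not be measured. Floors leave members out, so fewer are counted under them.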
